A study of Mus musculus with 10 samples.

Results

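Mouse collecting duct (CD) organoids were compared with collecting duct cells sorted from the adult mouse kidney. The comparison took 4 of the 10 RNA-seq libraries of the series, with 2 libraries for the organoids and 2 for adult mouse CD (mCD) cells, and within them the 18818 of 39273 listed genes whose counts summed to at least 10. The remaining libraries are of ureteric bud (UB) organoids, and those of day 10, the stage from which CD organoids were made, are given below as a reference level. They held almost no transcripts of Y-linked genes, which CD organoids carried (values at the end). The day 10 libraries thus stand for the stage and not for the parent cultures. CD organoids were grown from UB cells of kidneys of embryonic day 11 by the labels (the methods give a slightly later stage), heterozygous for a *Wnt11*-RFP reporter on a C57BL/6 x Swiss Webster background. The UB organoids were expanded until day 10 and then held for about a week in CD differentiation medium (CDDM), whose additions include FGF9, Y27632, DAPT, PD0325901, aldosterone and vasopressin. Adult mCD cells were, by the series description and the methods, Venus-positive cells that were sorted from *Hoxb7*-Venus mouse kidneys at an age of 2 months, in which the *Hoxb7* promoter drives the reporter in the ureteric bud lineage. The sample labels differ from this, since they title these samples as adult organoids and give them the embryonic age, genotype and background of the organoids. None of the sources used here says whether the 2 libraries of a group came from separate animals or cultures. The p-values thus measure the spread between libraries of the same group, which may be technical. That spread was estimated over all 10 libraries, UB organoids included, so for a given gene it can differ from the spread within the 4 compared.

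The collecting duct is the last part of the renal tubule. Its principal cells reabsorb water through aquaporins under vasopressin and sodium through the epithelial sodium channel under aldosterone, while its intercalated cells secrete acid (type A) or bicarbonate (type B) with a V-type proton pump and chloride/bicarbonate exchangers. Unlike the segments upstream of it, from the glomerulus through the proximal tubule and loop of Henle to the distal convoluted tubule, the duct descends from the ureteric bud, and the connecting tubule joins these lineages. A sort of adult duct cells can therefore be checked against the transporters of the other segments, which a culture founded from ureteric bud cells is not known to make.

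The 2 CD organoid libraries held 13554738 and 11913613 counts and the 2 adult libraries 16759872 and 16038205. Levels are CPM, the counts of a gene relative to the library size after scaling with TMM factors, and 3 counts, between 0.209 and 0.239 CPM in these libraries, were taken as the limit of detection, which covers counting error only. A gene was called when the quasi-likelihood test of edgeR gave a Benjamini-Hochberg adjusted p of at most 0.01 and the change exceeded 4-fold. CD organoids were higher in 1123 genes, 5.97% of those tested, and lower in 2410 genes, 12.8%, and these shares are the background for the counts below. The log2 fold change, always CD organoids minus adult mCD, had a median of 0.00 over all genes. With library totals in place of TMM factors the median was 0.37 and the calls were 1593 higher and 2046 lower, so that small negative values can change their sign between these scalings. The authors' deposited scaled values, which sum to the same total in every library, gave 1723 higher and 2224 lower.

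Transcripts of other nephron segments were plentiful in the adult mCD libraries and scarce in CD organoids. All 22 proximal tubule genes listed were called lower in CD organoids, against 12.8% of all genes tested, with a median log2 fold change of -9.64, and their summed level was 119 and 142 CPM in CD organoids against 15553 and 18832 CPM in adult mCD. The smallest margin was that of *Ass1*, the argininosuccinate synthase of arginine synthesis, at 96.3 and 102 against 368 and 475 CPM (log2 fold change -2.09), whose call was lost with library totals (-1.72) and without adult replicate 2 (-1.92). *Slc34a1*, the sodium-phosphate cotransporter of the proximal brush border, was at 0.628 and 2.31 CPM in CD organoids against 1383 and 1684 CPM in adult mCD. *Hnf4a*, a transcription factor of proximal tubule cells, was at 0.140 and 0.478 against 250 and 285 CPM. *Lrp2*, which encodes the endocytic receptor megalin, was at 4.81 and 5.26 against 1003 and 1148 CPM. The groups did not overlap for any of these 4 genes. In bulk samples, fewer cells of a type and less RNA per cell cannot be told apart.

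The loop of Henle and most of the distal genes were lower as well. All 9 thick ascending limb genes were called lower (-8.14 in the median, and -6.87 with *Irx1*, at 0 in both organoid libraries, set to its bound). The list summed to 12.9 and 17.5 CPM in CD organoids against 5150 and 5383 CPM in adult mCD. *Umod*, which encodes uromodulin, was at 0.628 and 2.39 CPM in CD organoids against 1947 and 2052 CPM in adult mCD. *Egf*, the growth factor precursor of the distal tubule, was at 3.35 and 4.22 against 1660 and 1717 CPM (log2 fold change -8.79, standard error 0.122, adjusted p = 1.39e-11). All 4 thin limb genes were lower, among them *Aqp1*, the constitutive water channel of the proximal tubule and thin descending limb, at 0.767 and 2.07 against 837 and 916 CPM. Of the 7 distal convoluted tubule genes 4 were lower, including the thiazide-sensitive cotransporter *Slc12a3*, at 0.279 and 1.43 against 388 and 419 CPM. The kinase gene *Wnk4*, at 150 and 149 against 344 and 328 CPM, and its partner *Klhl3*, at 27.7 and 25.5 against 47.5 and 56.2 CPM, were not called.

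The connecting tubule list divided. *Klk1*, which encodes tissue kallikrein, was at 0.209 and 0.797 against 316 and 404 CPM. The calcium channel gene *Trpv5* was at 1.19 and 1.75 against 106 and 118 CPM and the calcium-binding protein gene *S100g* at 24.9 and 20.4 against 334 and 426 CPM. All 3 were called lower. *Calb1*, which encodes calbindin, was at 784 and 877 against 1167 and 1233 CPM (log2 fold change -0.53, standard error 0.082, adjusted p = 1.68e-04). The sodium-calcium exchanger gene *Slc8a1* was at 367 and 327 against 431 and 465 CPM, and neither was called. In UB organoids of day 10 these 2 genes averaged 167 and 111 CPM. Of 7 podocyte genes 4 were lower. Over the 6 lists of other segments, 46 of 54 genes were called lower and 0 higher (12.8% and 5.97% of all genes), and the 54 took 2.05 and 2.40% of the adult counts against 0.165 and 0.173% of those of CD organoids. Endothelial genes, which belong to no tubule, were lower in 8 of 8 cases, and *Pecam1* was at 0.698 and 0.797 against 152 and 154 CPM.

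**Figure D1:**
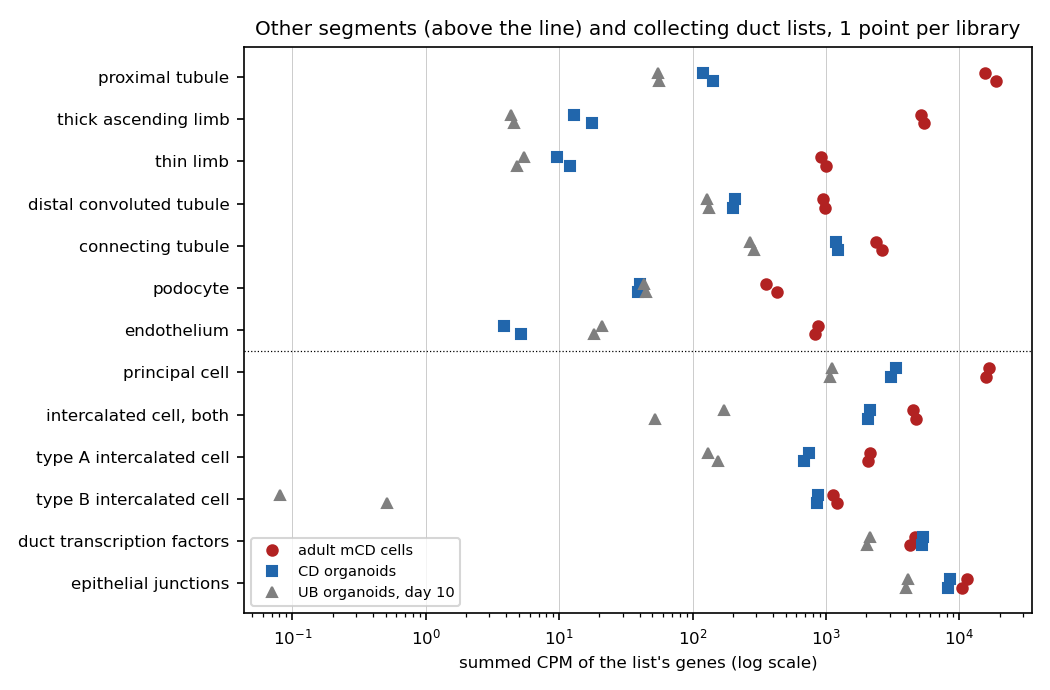
Summed CPM of each gene list (log scale) in the 2 adult mCD libraries, the 2 CD organoid libraries and the 2 libraries of UB organoids at day 10. Above the dotted line, lists of other segments and of endothelium lie to the right in adult mCD. Below it, the principal cell list is at 16716 and 15764 CPM in adult mCD and at 3341 and 3089 CPM in CD organoids, and the transcription factor list differs little.

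The 2 adult libraries also differed from each other, in part along the same line, in a ratio which the comparison with organoids does not use. Over the 11843 genes tested with at least 50 counts in both, the log2 ratio of replicate 1 to replicate 2 had a median of 0.00, with 5% of genes under -0.29 and 5% over 0.25. All 22 proximal tubule genes were lower in replicate 1 (median -0.24, from -0.68 to -0.09). So were all 5 connecting tubule genes (median -0.16) and all 3 podocyte genes with enough counts (median -0.22), while the thick ascending limb list was at -0.06. On the other side, 14 of 15 principal cell genes were higher in replicate 1 (median 0.07), as were 14 of 16 duct transcription factors (median 0.10) and all 10 junction genes (median 0.12). Intercalated cell genes lay between, at -0.08 for genes of both types, 0.01 for type A and -0.10 for type B. The distal convoluted tubule and thin limb lists were at -0.11 and -0.12. Endothelial genes, also high in adult mCD, lay on the principal cell side at 0.09 (5 of 8 above 0). Urothelial genes did too, at 0.11 (7 of 7). The ratio thus did not part endothelial or urothelial genes from principal cell genes, and each of these medians lay within the 5th to 95th percentile of all genes. With 1 library on each side there is no test of these ratios, and genes of a list share the library and are not replicates.

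Other programs lined up with one side or the other. Genes of the nuclear-encoded respiratory chain were lower in adult replicate 1 in 37 of 38 cases (median -0.11), and fatty acid oxidation genes in 13 of 13 (median -0.15). These were thus lower in the adult library that held less of the proximal tubule genes. Immediate early genes were higher in replicate 1 in all 13 cases (median 0.15) and basement membrane genes in all 12 (median 0.13). For each of these programs, how much of its level in adult mCD came from cells of other segments was not tested.

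**Figure D2:**
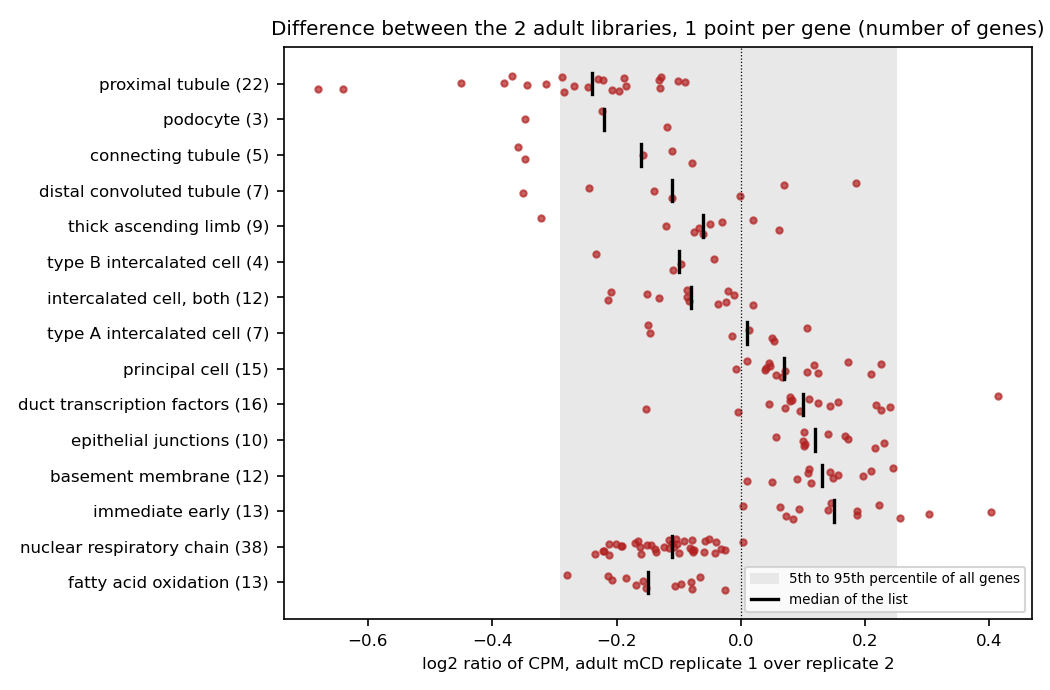
Log2 ratio of CPM in adult mCD replicate 1 over replicate 2, 1 point per gene with at least 50 counts in both, by list, with the median as a bar and the 5th to 95th percentile of all genes, -0.29 to 0.25, shaded. Proximal tubule genes lie left of 0, and the principal cell, transcription factor and junction lists lie mostly to its right.

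Principal cell genes were present in CD organoids at levels that ranged from near those of the adult duct down to the limit of detection. Of 15 tested, 9 were called lower than in adult mCD and 0 higher (median log2 fold change -2.50), and 14 lay above both day 10 libraries and below both adult ones. The share of all genes that did so was not counted, so this count has no background. The vasopressin-regulated water channel gene *Aqp2* was at 619 and 482 CPM in CD organoids against 4428 and 4226 CPM in adult mCD (log2 fold change -2.97, standard error 0.330, adjusted p = 1.17e-05). *Aqp3*, the water exit channel of the basolateral membrane (chromosome 4, 41092722 to 41098183, GRCm38), was at 23.1 and 18.9 CPM in CD organoids against 1899 and 1827 CPM in adult mCD (log2 fold change -6.46, standard error 0.217, adjusted p = 9.31e-10), that is at 1.24 and 1.01% of the adult mean, from 0.241 and 0.626 CPM on day 10. *Aqp4*, a second basolateral channel, was at 154 and 139 against 660 and 571 CPM (log2 fold change -2.07, standard error 0.166, adjusted p = 8.12e-07), a call lost with library totals (-1.70), upper-quartile factors (-1.93), limma on the deposited values (-1.70) and glmTreat, without CD organoid replicate 2 (-1.97) and without adult replicate 1 (-1.99). The 3 water channel genes were thus lower to unequal extents.

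The aldosterone pathway of the principal cell was also unequal. *Hsd11b2* (chromosome 8, 105518755 to 105523988), whose product inactivates cortisol and corticosterone and so keeps the mineralocorticoid receptor selective for aldosterone, was at 43.7 and 32.6 CPM in CD organoids against 2568 and 2486 CPM in adult mCD (log2 fold change -6.04, standard error 0.215, adjusted p = 1.41e-09). The mineralocorticoid receptor gene *Nr3c2* was at 39.8 and 41.2 against 162 and 149 CPM (log2 fold change -1.94, standard error 0.100, adjusted p = 2.33e-08), just inside 4-fold, and was called without adult replicate 2 (-2.02). Of the sodium channel subunits, *Scnn1a* at 158 and 164 against 952 and 873 CPM and *Scnn1g* at 117 and 128 against 731 and 695 CPM were called lower (log2 fold changes -2.50 and -2.54) and *Scnn1b*, at 306 and 338 against 862 and 801 CPM, was not (-1.37). *Kcnj1* (chromosome 9, 32372493 to 32399197), which encodes the potassium channel ROMK, was at 0.698 and 2.15 CPM in CD organoids against 967 and 942 CPM in adult mCD (log2 fold change -9.38, standard error 0.312, adjusted p = 1.08e-08), with values of -8.73 without CD organoid replicate 1 and -10.29 without replicate 2. *Kcnj1* is also expressed in the thick ascending limb. *Kcne1*, which encodes a potassium channel subunit, was at 11.7 and 11.0 against 256 and 257 CPM (-4.49), and the transmembrane protein gene *Tmem45b* at 41.5 and 40.6 against 242 and 241 CPM (-2.56).

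The remaining principal cell genes were within 4-fold of the adult level. *Gata3*, a transcription factor of the duct lineage, was at 425 and 417 against 252 and 215 CPM (log2 fold change 0.85, standard error 0.083, adjusted p = 4.02e-06), *Elf5* at 57.8 and 52.3 against 75.0 and 72.7 CPM and *Npnt*, which encodes the matrix protein nephronectin, at 1141 and 1034 against 2127 and 1886 CPM. *Fxyd4*, a regulator of the sodium pump in the duct, was at 203 and 187 against 536 and 521 CPM (-1.44). The vasopressin receptor gene *Avpr2* was not tested, since it had 0 counts in both CD organoid libraries and was at 0.147 and 0.304 CPM in adult mCD, at or near the limit of detection in all 4 libraries.

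The lowest of these values can be set beside those of proximal tubule genes. Of that list, 14 genes had at most 3 counts in each day 10 library, and these stood at a median of 0.0221% of the adult level in CD organoid replicate 1 (highest 0.0852%) and 0.150% in replicate 2 (highest 0.406%). *Kcnj1*, at 0.0731 and 0.225%, lay within these ranges, and was the only one of 38 principal and intercalated cell genes with at least 50 counts in each adult library to do so. The UB organoids of day 20 held the same 14 genes at 0.0236% and 0.120%, also higher in replicate 2. The source of these counts was not tested.

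Intercalated cell genes stood closer to the adult level than principal cell genes did in their medians, -0.86 against -2.50, a difference with no test. By staining, the paper found a larger share of intercalated cells in CD organoids than in the neonatal or adult duct. How far that share bears on these medians was not tested. Over the 3 lists, 7 of 23 genes were called lower, 1 higher and 15 neither, and all 23 lay above both day 10 libraries, a share not counted over all genes. *Foxi1*, the forkhead transcription factor that specifies intercalated cells, was at 497 and 469 CPM in CD organoids against 165 and 163 CPM in adult mCD (log2 fold change 1.56, standard error 0.165, adjusted p = 8.04e-06). The proton pump subunit genes of these cells were near the adult level. *Atp6v1b1* was at 420 and 398 against 580 and 595 CPM (-0.52), *Atp6v0d2* at 274 and 264 against 255 and 259 CPM and *Atp6v1c2* at 135 and 128 against 132 and 153 CPM. *Atp6v1g3* was at 137 and 127 against 238 and 252 CPM and *Atp6v0a4* at 173 and 154 against 463 and 507 CPM (-1.57). None of these 5 was called, and the sign for *Atp6v0d2* and *Atp6v1c2* depended on the scaling.

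The 7 genes called lower all encode channels or transporters. Both ammonia channel genes were among them. *Rhcg* (chromosome 7, 79593363 to 79617657) was at 12.8 and 11.4 CPM in CD organoids against 757 and 762 CPM in adult mCD (log2 fold change -5.96, standard error 0.212, adjusted p = 1.40e-09). *Rhbg* was at 0.837 and 0.957 against 30.8 and 34.2 CPM (log2 fold change -5.10, standard error 0.272, adjusted p = 8.42e-08). *Bsnd*, which encodes barttin, was at 53.6 and 48.8 against 86.0 and 99.5 CPM (-0.86) and was not called. The carbonic anhydrase gene *Car12*, at 297 and 301 against 1077 and 1144 CPM, and the vasopressin receptor gene *Avpr1a*, at 38.2 and 35.2 against 49.7 and 52.7 CPM, were not called either.

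In the type A cell, *Slc4a1*, the basolateral chloride/bicarbonate exchanger AE1 (chromosome 11, 102348824 to 102366203), was at 2.72 and 2.23 CPM in CD organoids against 532 and 512 CPM in adult mCD (log2 fold change -7.68, standard error 0.176, adjusted p = 1.23e-10). *Aqp6*, an intracellular channel of these cells, was at 3.21 and 5.10 against 637 and 615 CPM (log2 fold change -7.23, standard error 0.252, adjusted p = 1.19e-09). The chloride/bicarbonate exchanger gene *Slc26a7* was at 2.37 and 2.31 against 61.5 and 68.0 CPM (log2 fold change -4.76, standard error 0.183, adjusted p = 2.52e-09). The 1 gene called higher was *Dmrt2*, a transcription factor gene (chromosome 19, 25672411 to 25678991), at 133 and 129 against 24.9 and 24.7 CPM (log2 fold change 2.40, standard error 0.128, adjusted p = 2.56e-07). The receptor gene *Kit* was at 319 and 294 against 151 and 152 CPM (log2 fold change 1.02, standard error 0.087, adjusted p = 1.37e-06). *Adgrf5* was at 253 and 221 against 686 and 637 CPM and *Hmx2* at 35.0 and 34.8 against 40.9 and 45.3 CPM, and none of these 3 was called. In the type B cell the apical exchanger pendrin, *Slc26a4*, was at 55.0 and 43.8 CPM in CD organoids against 278 and 300 CPM in adult mCD (log2 fold change -2.54, standard error 0.113, adjusted p = 2.20e-08). Its basolateral counterpart *Slc4a9* was at 472 and 497 against 501 and 535 CPM (-0.10, with a sign that depended on the scaling). *Hepacam2* was at 160 and 143 against 81.4 and 95.7 CPM and *Insrr* at 176 and 170 against 273 and 281 CPM, and neither was called. The day 10 means of *Slc4a1*, *Slc26a4* and *Slc4a9* were 0.0184, 0.0938 and 0.0368 CPM, at or under the limit of detection.

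**Figure D3:**
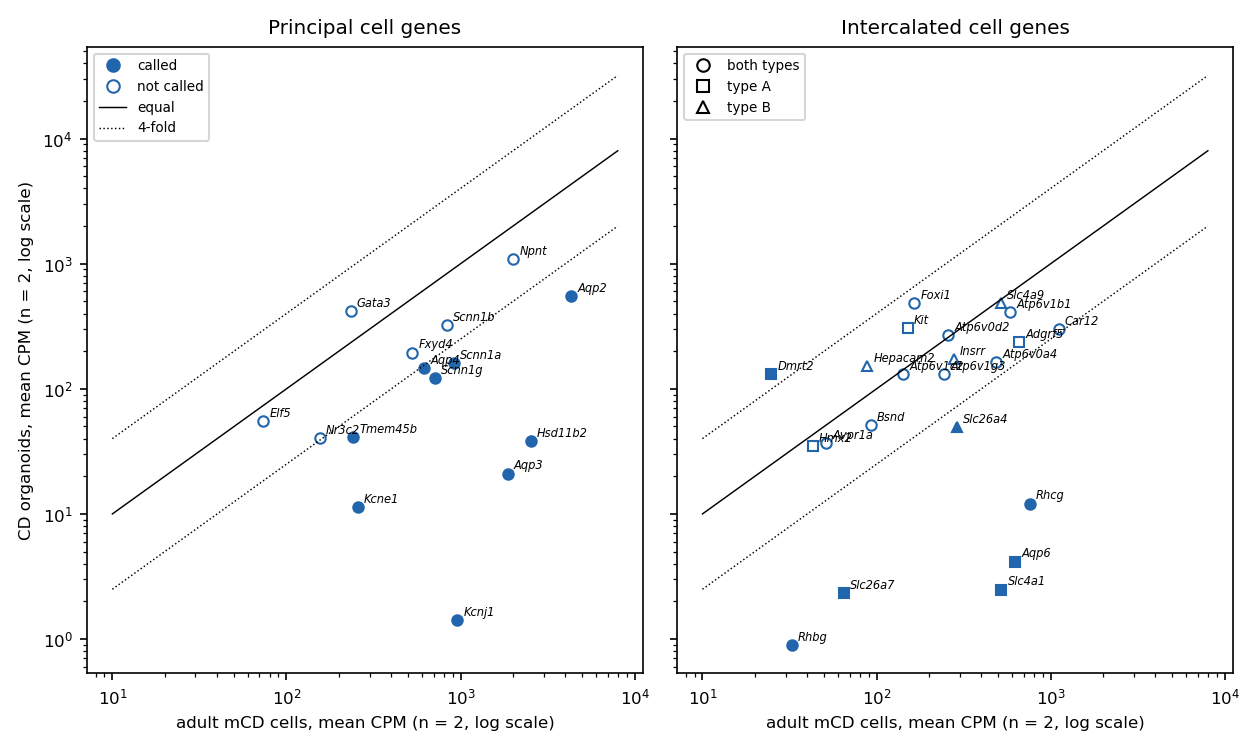
Mean CPM of each tested principal cell gene (left) and intercalated cell gene (right) in adult mCD cells (x axis) and CD organoids (y axis), both on log scales, n = 2 libraries each, with lines of equal level and of 4-fold change. Filled symbols are called genes, and 1 intercalated cell gene is not drawn. *Kcnj1*, *Aqp3*, *Hsd11b2* and *Kcne1* lie far under the lower 4-fold line on the left, and *Rhbg*, *Slc4a1*, *Aqp6*, *Slc26a7* and *Rhcg* on the right.

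The 250 bases before the RefSeq start sites (GRCm38.p6) of 3 duct genes are printed because these genes span the outcomes described: *Aqp2*, lower but abundant, *Aqp3*, far under the adult level, and *Atp6v1b1*, near the adult level. They were searched on both strands for the forkhead letters GTAAACA and the cyclic AMP response element TGACGTCA, letters which do not overlap each other, and matches are in capitals.
Aqp2 (chr15:99578806-99579055, plus strand): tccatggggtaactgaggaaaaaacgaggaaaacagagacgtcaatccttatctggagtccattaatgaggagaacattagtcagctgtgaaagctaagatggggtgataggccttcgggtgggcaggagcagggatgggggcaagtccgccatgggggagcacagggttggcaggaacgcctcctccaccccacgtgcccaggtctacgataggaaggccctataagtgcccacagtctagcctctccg
Aqp3 (chr4:41098184-41098433, minus strand): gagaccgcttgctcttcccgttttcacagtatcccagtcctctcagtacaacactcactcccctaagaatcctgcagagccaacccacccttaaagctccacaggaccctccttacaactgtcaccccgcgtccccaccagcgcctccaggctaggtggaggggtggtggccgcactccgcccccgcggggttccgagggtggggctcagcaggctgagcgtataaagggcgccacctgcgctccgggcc
Atp6v1b1 (chr6:83742767-83743016, plus strand): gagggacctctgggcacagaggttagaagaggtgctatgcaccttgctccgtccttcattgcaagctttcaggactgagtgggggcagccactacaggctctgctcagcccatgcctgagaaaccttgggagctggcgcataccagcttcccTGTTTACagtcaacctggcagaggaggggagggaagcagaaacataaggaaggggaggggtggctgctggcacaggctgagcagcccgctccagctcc
The single match was the forkhead heptamer on the minus strand of *Atp6v1b1*, which began 98 bases before the start site. Of the 18 stretches found for the intercalated cell lists, covering 15 genes, this was the only one with the heptamer (5.56%), against 3.17% of all 32851 stretches, and of the 13 stretches of the principal cell list 1 held it (7.69%), that of *Avpr2*. None of these 13 and 18 stretches held the cyclic AMP element, found in 1.55% of all. A match describes letters and does not show binding.

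Most transcription factor and junction genes of the duct lay within 4-fold of the adult level. Of 16 duct transcription factors 2 were called lower and 0 higher, with a median log2 fold change of 0.13. The share called lower was near the 12.8% of all genes, so this count does not set the list apart. With the limit on the fold dropped and that on the adjusted p set to 0.05, 6 were lower and 7 higher. Of all genes, 33.5% were lower and 32.0% higher by that looser rule. *Tfcp2l1*, which acts in both duct cell types, was at 2484 and 2363 CPM in CD organoids against 1278 and 1282 CPM in adult mCD (log2 fold change 0.92, standard error 0.171, adjusted p = 6.30e-04). *Hoxb7*, whose promoter drives the sorting reporter, was at 118 and 124 against 69.8 and 65.9 CPM (0.84) and *Pax2* at 234 and 231 against 166 and 141 CPM (0.60). *Emx2* was at 85.9 and 77.6 against 33.4 and 37.1 CPM (1.21) and *Grhl2* at 118 and 112 against 71.2 and 63.9 CPM (0.76). *Ehf* at 551 and 552 against 479 and 439 CPM and *Elf3* at 411 and 439 against 455 and 391 CPM were within 4-fold too. So were *Mecom* at 205 and 205 against 289 and 274 CPM and *Pax8* at 104 and 106 against 148 and 134 CPM. On the low side, *Klf5* was at 131 and 135 against 491 and 369 CPM (-1.69) and was not called.

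The 2 factors called lower were *Gata2* (chromosome 6, 88193891 to 88207032), at 26.7 and 25.8 against 276 and 258 CPM (log2 fold change -3.34, standard error 0.079, adjusted p = 1.39e-10), and *Sim1*. *Sim1* was at 34.5 and 33.0 against 141 and 131 CPM (log2 fold change -2.01, standard error 0.078, adjusted p = 2.60e-09). *Gata2* is known to act on *Aqp2* in the duct. The call of *Sim1*, on the edge of 4-fold, was lost with library totals (-1.64), without CD organoid replicate 2 (-1.95) and without adult replicate 1 (-1.98). None of 10 junction genes was called, while 5 were lower and 4 higher by the looser rule. E-cadherin, *Cdh1*, was at 2050 and 1974 against 1678 and 1445 CPM (0.37) and the kidney cadherin *Cdh16* at 2649 and 2485 against 3824 and 3565 CPM (-0.53). The claudins lay on both sides, with *Cldn4* at 876 and 831 against 3454 and 3223 CPM (-1.97, called without adult replicate 2, at -2.04) and *Cldn8* at 815 and 864 against 340 and 327 CPM (1.33). Of the simple keratins, *Krt8*, *Krt18* and *Krt7* were at log2 fold changes of -1.01, -0.96 and -1.49 and were not called. *Krt19* (chromosome 11, 100140810 to 100148665) was called higher, at 327 and 345 against 45.7 and 41.8 CPM (log2 fold change 2.94, standard error 0.342, adjusted p = 1.73e-05).

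The sodium pump subunit gene *Atp1b1* was at 1680 and 1729 against 4340 and 4149 CPM (-1.32) and was not called. *Fxyd2*, the pump's regulator of the segments before the duct, was called lower, at 3.77 and 3.27 against 688 and 758 CPM (log2 fold change -7.66, standard error 0.255, adjusted p = 8.72e-10). None of 15 ubiquitous V-ATPase subunits was called (median -0.36). Per length, from counts divided by gene length, the intercalated cell subunit *Atp6v1b1* stood at 3.58 and 3.50 times the level of its ubiquitous counterpart *Atp6v1b2* in CD organoids and at 2.70 and 2.59 times in adult mCD. The corresponding ratio of *Atp6v0a4* to *Atp6v0a1* was 2.21 and 2.04 against 11.9 and 12.6. These ratios lie within a library and do not depend on the scaling, and in both pairs the groups did not overlap.

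CDDM acts on several pathways. DAPT blocks the Notch pathway and PD0325901 the kinase MEK upstream of ERK. Aldosterone and vasopressin are described by the paper as hormones that regulate principal or intercalated cells. Of 13 Notch pathway genes 4 were called lower and 0 higher (median -1.38), against 12.8% and 5.97% of all genes tested. Endothelial genes were high in the same adult libraries, at 869 and 831 CPM summed against 3.84 and 5.18 CPM in CD organoids. The part of DAPT or of endothelial cells in the 4 calls was not tested. The receptor gene *Notch1* was at 196 and 204 against 172 and 150 CPM (0.32) and was not called. The ligand gene *Jag1*, at 60.9 and 52.5 against 192 and 183 CPM (-1.73), was not called. The target gene *Hes1* was called lower, at 46.7 and 47.6 against 231 and 211 CPM (log2 fold change -2.23, standard error 0.162, adjusted p = 3.61e-07), but not under library totals (-1.86). The targets *Heyl*, at 2.65 and 3.35 against 55.5 and 50.9 CPM (log2 fold change -4.13, standard error 0.344, adjusted p = 1.10e-06), and *Nrarp*, at 0.558 and 0.877 against 5.51 and 6.38 CPM (-2.97), were also lower. The fourth was *Mfng*, a modifier of the receptors, at 0 in both CD organoid libraries and at least 25.1-fold lower than in adult mCD. In UB organoids of day 10, before DAPT, *Hes1* was at 29.8 and 28.9 CPM, under both CD organoid libraries, and in those of day 20 at 595 and 706 CPM, above both CD organoid and both adult libraries.

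Of 12 genes of ERK feedback 3 were called lower and 0 higher, against 12.8% and 5.97% of all genes tested. The adult libraries also carried high levels of immediate early genes, at 29471 and 26017 CPM summed against 549 and 587 CPM in CD organoids. How far the state of the adult cells or PD0325901 bears on the 3 calls was not tested. *Fosl1*, which encodes an AP-1 factor, was at 0 in both CD organoid libraries and at 19.9 and 15.9 CPM in adult mCD, at least 74.8-fold lower. *Spry4*, an inhibitor of the pathway, was at 5.37 and 2.79 against 19.1 and 21.7 CPM (log2 fold change -2.28, standard error 0.246, adjusted p = 9.20e-06), a call lost without CD organoid replicate 2 (-1.89) and with library totals (-1.92). *Ier3* was at 119 and 131 against 521 and 503 CPM (log2 fold change -2.03, standard error 0.205, adjusted p = 5.52e-06), and its call was lost with library totals (-1.66) and without CD organoid replicate 1 (-1.94). *Dusp6*, a phosphatase for ERK, was at 53.9 and 54.8 against 97.0 and 96.8 CPM with a day 10 mean of 408 CPM, and *Spred1* was at 115 and 120 against 43.1 and 46.2 CPM, and neither was called. Of 11 genes of the corticoid response only *Hsd11b2* and *Scnn1a*, given above, were called lower. *Sgk1*, the kinase induced by aldosterone, was at 166 and 177 against 322 and 320 CPM (-0.90), from a day 10 mean of 4.86 CPM. Of 7 genes of urea and osmolyte transport, the betaine transporter gene *Slc6a12* was called lower, at 0.488 and 0.478 against 7.20 and 5.85 CPM (log2 fold change -3.61, standard error 0.527, adjusted p = 1.05e-04). The urea transporter gene *Slc14a2* was at 140 and 130 against 171 and 108 CPM, where the adult libraries enclosed those of the organoids. *Nfat5*, the regulator of the osmotic response, was at 951 and 1016 against 459 and 428 CPM (1.15).

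The adult libraries carried high levels of immediate early and heat shock genes. All 13 immediate early genes were called lower in CD organoids (median -6.65), and they summed to 549 and 587 CPM there against 29471 and 26017 CPM in adult mCD. *Zfp36*, an RNA-binding regulator, was at 42.3 and 46.1 CPM in CD organoids against 4781 and 4096 CPM in adult mCD (log2 fold change -6.65, standard error 0.170, adjusted p = 2.16e-10). *Fos* was at 12.1 and 20.3 against 4132 and 3899 CPM (-7.96) and *Jun* at 120 and 120 against 2295 and 2182 CPM (-4.22). Of 5 heat shock genes 4 were lower, among them *Hspa1b* at 111 and 115 against 1106 and 1176 CPM (-3.33) and *Dnajb1* at 64.7 and 75.4 against 792 and 759 CPM (-3.47). The UB organoids summed to 444 and 434 CPM over the immediate early list on day 10 and to 8277 and 10254 CPM on day 20, so that cultured organoids were not uniformly low. The adult cells were freshly sorted and the CD organoids were cultured, so the handling and the stage cannot be told apart here.

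Genes of the embryonic origin were kept on in part. Of 12 fetal growth genes 7 were called higher in CD organoids and 1 lower (median 2.75). The clearest were RNA-binding proteins of the fetus. *Igf2bp3* (chromosome 6, 49085223 to 49214957) was at 54.7 and 55.4 against 1.03 and 0.608 CPM (log2 fold change 5.98, standard error 0.241, adjusted p = 3.36e-09), with a day 10 mean of 44.4 CPM. *Igf2bp2* was at 119 and 122 against 8.96 and 8.81 CPM (log2 fold change 3.75, standard error 0.120, adjusted p = 6.65e-10), with a day 10 mean of 216 CPM. *Igf2bp1* was at 18.4 and 18.7 against 2.72 and 2.35 CPM (log2 fold change 2.84, standard error 0.610, adjusted p = 0.00173). The imprinted *H19* was at 48.8 and 35.6 against 2.20 and 0.380 CPM (log2 fold change 4.96, standard error 1.404, adjusted p = 0.00911), with 549 and 63.6 CPM in the day 10 libraries. The groups did not overlap, but the call of *H19* was lost without each of the 4 libraries in turn, at 4.74 and 5.20 without CD organoid replicates 1 and 2 and 6.59 and 4.20 without adult replicates 1 and 2. Of the others called, *Hmga2* was at 3.42 and 5.26 against 0.882 and 0.380 CPM and *Meg3* at 7.39 and 9.65 against 0.955 and 0.608 CPM. *Lin28b* rests on 2 counts in adult mCD, a ratio of 12.0 with a 95% counting interval of 2.97 to 104. The call of *Igf2bp1* was lost without adult replicate 1 (2.92) and without adult replicate 2 (2.72). That of *Meg3*, at 3.35, was lost without CD organoid replicate 2 (3.18) and without either adult library (3.66 and 3.06). That of *Lin28b* was lost without CD organoid replicate 1 and without either adult library.

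The ureteric bud tip program was mostly off. *Ret*, the receptor of the bud tip, was at 15.5 and 17.3 CPM in CD organoids from a day 10 mean of 1501 CPM, and at 9.77 and 0.911 CPM in adult mCD, with a log2 fold change of 1.59 that was not called. Without adult replicate 1 it was 4.06 and called, as it was with limma on the deposited values (2.78), and without adult replicate 2 it was 0.71. *Wnt11* was at 0.558 and 0.239 against 2.57 and 1.59 CPM and *Etv5* at 7.05 and 7.09 against 7.72 and 6.99 CPM, from day 10 means of 153 and 325 CPM, and neither was called. An exception was *Sox9*, the transcription factor of the tip and of injured tubules, at 230 and 255 CPM in CD organoids against 23.1 and 21.7 CPM in adult mCD (log2 fold change 3.43, standard error 0.105, adjusted p = 5.56e-10) and at 322 CPM on day 10. *Lhx1* and *Mycn* were called lower, at 0.279 and 0.558 against 17.3 and 18.2 CPM and at 0.558 and 0.399 against 12.4 and 12.8 CPM. Of 21 cell cycle genes none was called (median 0.39). *Mki67* was at 73.5 and 89.7 against 69.1 and 70.9 CPM and *Top2a* at 47.2 and 50.1 against 30.5 and 35.0 CPM. Their day 10 means were 721 and 573 CPM.

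Most genes of energy metabolism differed by less than 4-fold. None of 38 nuclear-encoded respiratory chain genes passed 4-fold, but all 38 were lower at an adjusted p of at most 0.05 without a limit on the fold, against 33.5% of all genes (median -1.08, from -1.52 to -0.44). *Atp5b*, a subunit of ATP synthase, was at 1332 and 1267 against 2946 and 3191 CPM (log2 fold change -1.24, standard error 0.080, adjusted p = 1.38e-07). The same held for all 13 of 13 genes of the tricarboxylic acid cycle (median -1.12). With library totals every value would be less negative by about the shift of 0.37. Of 13 fatty acid oxidation genes (median -1.45) 3 were called lower. The peroxisomal enzyme gene *Ehhadh*, at 6.28 and 6.78 against 179 and 208 CPM (log2 fold change -4.88, standard error 0.151, adjusted p = 5.56e-10), was called with library totals too. *Cpt1a*, at 144 and 143 against 619 and 630 CPM (-2.13), and *Ppara*, at 5.51 and 4.62 against 19.8 and 24.1 CPM (-2.10), were not called with library totals. *Ppara* was not called either without CD organoid replicate 2 (-1.96) or without adult replicate 2 (-1.98). Among regulators *Ppargc1a* was at 82.6 and 83.0 against 255 and 249 CPM (-1.61) and was not called. *Esrrb* was called lower at 0.628 and 0.399 against 34.5 and 33.9 CPM (log2 fold change -5.90, standard error 0.279, adjusted p = 1.16e-08).

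The mitochondrial genome took 2.90% and 2.94% of counts in CD organoids and 8.78% and 9.00% in adult mCD over the 13 protein genes listed. Of the 8 tested *mt-Cytb* and *mt-Nd4* were called lower (log2 fold changes -2.37 and -2.42), the former not under library totals. *mt-Atp6* was at 0 and 0 against 156 and 0 CPM, with counts in a single adult library, and was not called. The 5 members not tested, such as *mt-Co2*, are listed at 0 in all 4 libraries. Glycolysis genes lay on the other side (median 0.92), with 12 of 15 higher at an adjusted p of at most 0.05, against 32.0% of all genes. The hexokinase gene *Hk2*, at 446 and 498 CPM in CD organoids against 44.2 and 29.2 CPM in adult mCD (log2 fold change 3.68, standard error 0.200, adjusted p = 3.42e-08), was called higher. So was the lactate exporter gene *Slc16a3* (chromosome 11, 120948480 to 120960868), at 258 and 255 against 3.23 and 3.27 CPM (log2 fold change 6.28, standard error 0.308, adjusted p = 1.57e-08). *Ldha*, lactate dehydrogenase, was at 1750 and 1696 against 560 and 595 CPM (1.58) and was not called. At day 10, *Hk2* and *Slc16a3* averaged 316 and 183 CPM. The proximal tubule uses fatty acids as its main fuel, and its summed level was 119 and 142 CPM against 15553 and 18832 CPM. Its part in these differences was not tested.

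**Figure D4:**
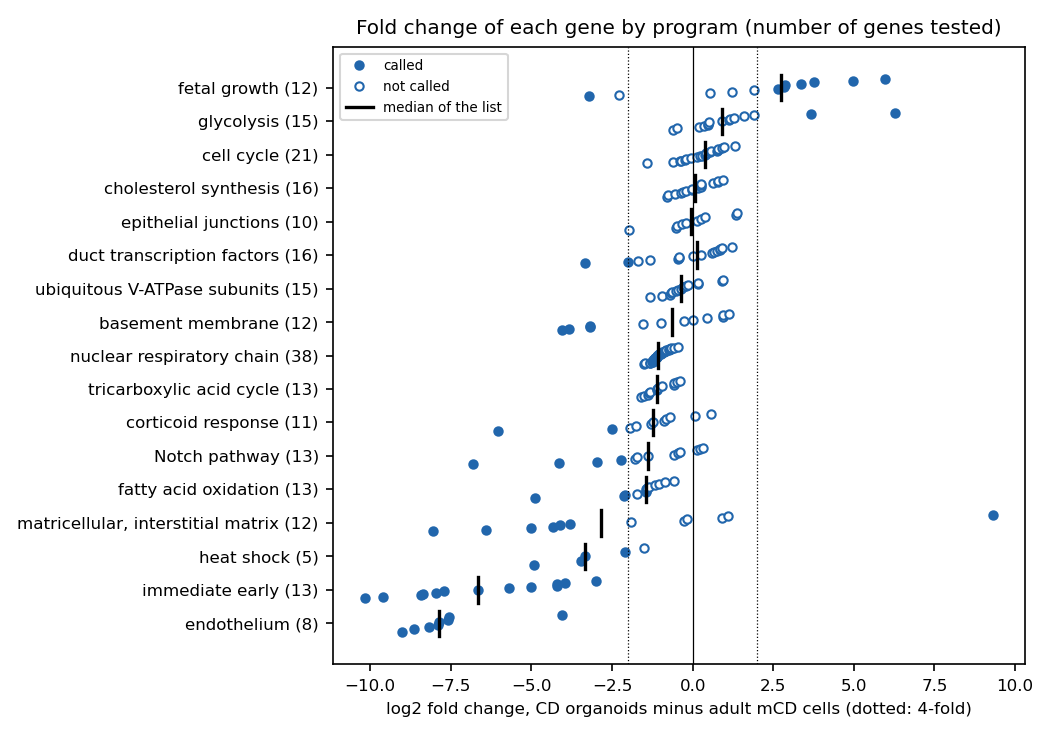
Log2 fold change of each tested gene, CD organoids minus adult mCD cells, by program, with filled points for called genes, bars for medians and dotted lines at 4-fold. Immediate early and endothelial genes lie left of the lower 4-fold line, all 38 respiratory chain genes lie between -1.52 and -0.44, and fetal growth genes lie mostly to the right.

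The largest log2 fold change of any listed gene was that of a matrix gene. *Postn* (chromosome 3, 54361109 to 54391037), which encodes periostin, was at 3358 and 2735 CPM in CD organoids against 5.14 and 4.25 CPM in adult mCD (log2 fold change 9.32, standard error 0.555, adjusted p = 7.28e-08), with 17.7 and 54.6 CPM in the day 10 libraries. Of the 12 genes of its list it was the only one called higher, 6 were called lower and 5 neither. Among the latter were the collagen genes *Col1a1*, at 74.8 and 30.4 against 27.0 and 28.8 CPM (0.92), and *Col3a1*, at 117 and 61.0 against 41.4 and 42.0 CPM (1.09). *Spp1*, which encodes osteopontin, was at 5.37 and 9.17 against 1912 and 1926 CPM (log2 fold change -8.05, standard error 0.240, adjusted p = 4.94e-10). *Thbs1*, thrombospondin 1, was at 48.9 and 46.2 against 726 and 608 CPM (log2 fold change -3.81, standard error 0.243, adjusted p = 1.29e-07). *Ccn1* was at 5.93 and 7.33 against 552 and 575 CPM (-6.40) and *Vim*, vimentin, at 13.5 and 9.49 against 242 and 224 CPM (-4.32). Of 12 basement membrane genes the 4 called lower were collagen IV chains. They were *Col4a1* at 135 and 112 against 1155 and 1068 CPM (-3.17) and *Col4a2* at 56.5 and 45.5 against 476 and 460 CPM (-3.19). The other two were *Col4a3* at 29.0 and 26.3 against 462 and 459 CPM (-4.05) and *Col4a4* at 63.9 and 57.8 against 890 and 835 CPM (-3.82). The laminin gene *Lama5*, at 1110 and 1165 against 888 and 774 CPM, and the perlecan gene *Hspg2*, at 1214 and 1240 against 697 and 588 CPM, were not called. Endothelial cells also make the first 2 collagen IV chains, and endothelial genes were high in the same adult libraries. Their part in these values was not tested.

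Large differences were also found outside the lists. Among the 453 called genes in no list with a mean of at least 50 CPM and no overlap, the largest falls included *Ces1f*, a carboxylesterase, with 3 counts in CD organoids against 268 and 291 CPM in adult mCD (ratio 2504, counting interval 857 to 12145). *G6pc*, the glucose-6-phosphatase of gluconeogenesis, had 1 count in CD organoids against 95.1 and 123 CPM (ratio 2931, interval 526 to 115809). *Slc22a12*, the urate transporter of the proximal tubule, was at 0.0698 and 0.399 against 251 and 286 CPM. The largest rises included the water channel gene *Aqp5*, at 232 and 226 CPM in CD organoids against 1.03 and 0.835 CPM in adult mCD (log2 fold change 7.85, standard error 0.214, adjusted p = 3.06e-10), and the mucin gene *Muc4*, at 297 and 310 against 3.38 and 2.28 CPM (log2 fold change 6.72, standard error 0.200, adjusted p = 4.94e-10). They also included *Hif3a*, a hypoxia-inducible factor, at 206 and 229 against 1.25 and 0.911 CPM (7.58), and *Tchh*, which encodes trichohyalin, at 874 and 832 against 22.4 and 18.5 CPM (5.38). *Aldh1a3*, an enzyme of retinoic acid synthesis, was at 504 and 421 against 5.00 and 0.532 CPM with a day 10 mean of 294 CPM. Its log2 fold change, 7.34, was 9.60 without adult replicate 1 and 6.49 without replicate 2.

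Classes among the 3533 called genes were also set by level, with limits that use the same values as the calls, so that the counts are descriptions. The day 10 level enters the kept on and acquired classes only, and not every called gene falls in a class. There were 978 missing genes, called lower with at most 3 counts in each CD organoid library, among the most abundant of which was *Slc9a3*, the sodium-proton exchanger of the proximal tubule, with 165 and 172 CPM in adult mCD. There were 56 genes kept on from the bud, called higher, under 1 CPM in both adult libraries and at least 10 CPM in both day 10 libraries. The most abundant of these was *Ptprz1*, a receptor phosphatase, at 75.3 and 76.1 against 0.955 and 0.759 CPM (log2 fold change 6.37, standard error 0.198, adjusted p = 5.79e-10) with a day 10 mean of 96.8 CPM. The next was the long non-coding RNA *Mir100hg*, at 65.5 and 64.7 against 0.955 and 0.759 CPM with a day 10 mean of 106 CPM. There were 313 acquired genes, called higher and under 1 CPM in both adult and both day 10 libraries. *Ltb*, a cytokine of the tumour necrosis factor family, was at 25.3 and 27.5 against 0.220 and 0.304 CPM (log2 fold change 6.39, standard error 0.324, adjusted p = 2.04e-08). The secreted protein gene *Tff2* was at 17.9 and 20.7 CPM against 1 count in adult mCD (ratio 515, interval 92.0 to 20382). *Nrn1*, neuritin, was at 21.3 and 21.1 CPM against 0 in both adult libraries, at least 93.1-fold higher.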

How the data were processed

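RNA-seq counts of CD organoids and adult mCD cells, 2 libraries each, were analysed. The authors trimmed reads, aligned them to mm10 with STAR and counted them on GENCODE genes in Partek Flow, whose model shares out reads of near-identical genes. They deposited whole-number counts, RPKM values (not used here) and a scaled signal that sums to one total per library. The submitters' processing notes also name FastQC 0.11.8, cutadapt 2.5, Trimmomatic 0.36 and edgeR 3.28.1, with build GRCm38.p6. For RNA and library kits, labels (QIAgen RNeasy, Illumina TruSeq) and methods (Direct-zol, KAPA Stranded) differ.

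Counts were tested with edgeR 4.0.16 in R 4.3.3 (quasi-likelihood test, TMM factors 0.812 to 1.058 in these libraries, prior count 1), in 1 fit of all 10 libraries over genes with at least 10 counts in the 4 compared. Each group had 2 libraries, so the spread was estimated over all groups (common dispersion 0.00799, prior degrees of freedom 5.81 in the median). Standard errors are the log2 fold change over the root of F. Counting intervals are exact (Clopper-Pearson, 95%) and cover counting error only. On simulated counts for this comparison, 100 of 100 genes changed 8-fold and 100 of 100 changed 16-fold were called among 18873, with 0 false calls. The changed genes were well counted and all genes shared 1 dispersion. The simulation therefore does not cover genes of low count, unequal spread or changes near 4-fold.

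The members and the 44 gene lists were chosen with earlier results of these data known. Named genes are those the study names, all members of the principal cell, intercalated cell and transcription factor lists, the 4 most abundant and any dissenting members of other lists, and the largest changes and most abundant genes of each class. Other members named, given as examples or to complete a pathway, were chosen after their values were seen. Some members of the lists are counted but not reported here by name. Positions are from GENCODE M21, which holds 99.7% of the identifiers. Alternatives used library totals, RLE and upper-quartile factors, other filters and thresholds, DESeq2 1.42.0, limma 3.58.1 on the scaled signal, a replicate block and each library left out. Tables and figures were made with Python 3.11.15, pandas 2.3.3, scipy 1.17.1 and matplotlib 3.10.9.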

Additional observations from a re-analysis of the deposited data

How the results depend on the processing

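The number of proximal tubule genes called lower stayed between 21 and 22 and that of intercalated cell genes at 7 under every alternative but 1. At an adjusted p of at most 0.05 with no limit on the fold, 15 intercalated cell genes and 14 principal cell genes were lower, with 6027 genes higher and 6307 lower over all. A test against 4-fold (glmTreat) gave 424 higher and 1405 lower, and limma on the deposited scaled values 1723 higher. Principal cell genes called lower numbered between 6 and 10 under the other alternatives, the 6 with glmTreat. Leaving out 1 library gave 870 to 974 genes higher and 2067 to 2168 lower. DESeq2 called 906 higher and 2128 lower. With a replicate block in the fit of all 10 libraries, 1089 genes were higher and 2320 lower, and 1121 and 2517 with the 4 CD libraries alone. The numbers did not pair the libraries, since deviations of those numbered 1 correlated at -0.020 over genes, and the block changed none of the principal cell, intercalated cell and proximal tubule counts, the 3 lists counted under it. Over the 169 tested genes named, no called gene changed its direction, and 73 of 3209 values lost and 75 gained a call. The calls of *Aqp4*, *Ass1*, *Cpt1a*, *Ier3*, *Ppara* and *Sim1* were lost with library totals, upper-quartile factors, limma and glmTreat, and those of *Hes1* and *mt-Cytb* with all of these but upper-quartile factors. Of the uncalled genes, *Atp6v0d2*, *Elf3*, *Atp6v1c2*, *Etv5*, *Hmx2*, *Slc14a2*, *Slc4a9* and *Slc8a1* changed their sign under at least 1 other scaling. The low counts of genes near the limit of detection leave their fold changes open by the intervals given.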

Other observations

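Gasdermin and cornified epithelium genes were called in part. The gasdermin genes *Gsdmc2*, *Gsdmc3* and *Gsdmc4*, members of a family of pore-forming proteins, were called higher, at 295 and 365 CPM in CD organoids against 9.92 and 7.06 CPM in adult mCD, at 158 and 205 against 3.60 and 4.18 CPM and at 5.58 and 6.86 against 0.0735 and 0.304 CPM, so that 3 of 5 tested members were higher. Reads of these near-identical copies could be split among them. Of 6 genes of cornified epithelium *Hrnr*, hornerin, was at 27.5 and 34.4 CPM against 0 in both adult libraries, at least 136-fold higher, and *Flg*, filaggrin, at 10.4 and 7.49 CPM against 1 count (ratio 242, interval 43.0 to 9601), while *Ivl*, involucrin, was lower at 0.767 and 0.877 against 6.25 and 4.40 CPM (-2.62), a call lost without CD organoid replicate 1 (-2.51). Of 10 injury genes *Lcn2*, which encodes NGAL, was higher at 992 and 1315 against 142 and 105 CPM (log2 fold change 3.22, standard error 0.273, adjusted p = 1.30e-06), as was *Sox9*. In contrast *Vcam1* at 0.767 and 1.12 against 21.5 and 19.3 CPM, *Havcr1*, which encodes KIM-1, at 0.140 and 0.0797 against 3.31 and 5.32 CPM, *Spp1* and *Vim* were lower, so that 2 rose and 4 fell.

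Markers of other cells were lower in part. Of 7 urothelial genes 6 were lower in CD organoids, such as *Upk3a* at 0.558 and 0.478 against 14.8 and 13.9 CPM, and *Trp63*, at 28.1 and 21.5 against 11.2 and 10.9 CPM, was not called. Of 9 stromal genes 3 were lower, including renin, *Ren1*, at 0.279 and 0.319 against 105 and 89.3 CPM, and *Pdgfra* was higher at 17.1 and 9.57 against 1.54 and 2.51 CPM. Of 7 leukocyte genes tested 4 were lower, each at a low level in adult mCD (for example *Lyz2* at 0.0698 and 0 against 5.22 and 5.62 CPM), and of 5 erythroid genes 4. Of 6 genes of MHC class II 3 were lower, and *Cd74* was at 59.8 and 57.7 against 21.2 and 25.7 CPM and was not called. Of 8 interferon response genes 4 were lower, such as *Isg15* at 0.628 and 0.957 against 13.9 and 17.8 CPM (log2 fold change -4.25, standard error 0.373, adjusted p = 1.74e-06). None of 16 cholesterol synthesis genes (median 0.08) and none of 4 Y-linked genes (median 0.34) was called. The Y-linked list summed to 284 and 293 CPM in CD organoids, 252 and 253 CPM in adult mCD, and 0.322 and 0.884 CPM in UB organoids of day 10. *Xist* was at 297 and 264 against 1.91 and 0.0759 CPM, and its log2 fold change of 8.05 was 11.07 without adult replicate 1 and 7.13 without adult replicate 2. CD organoids thus held both Y-linked transcripts and *Xist*, and adult mCD held Y-linked transcripts with little *Xist*. The part of sex in the other differences was not tested.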
